A study of Daucus carota with 10 samples.

Results

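The genes examined here had transcripts at higher levels in one purple carrot phloem, F, than in any other taproot tissue sampled. RNA-Seq, which sequences cDNA copied from mRNA and assigns the fragments to genes, had been run on 10 libraries, 2 from each of 5 groups. Of 36089 annotated genes, 22 were chosen by their measured levels, so those levels are given as a description and carry no test. For each gene the lower of the 2 F libraries had to stand at least 2 times above the highest of the 8 other libraries. The means of the 4 other groups had to lie within 2 times of each other. Both limits were applied to FPKM + 1, where FPKM is the fragment number of a gene divided by its exon length and by the size of the library. Left out were the structural genes, transcription factor genes and glutathione S-transferase genes that the study had listed in its search for anthocyanin genes. Genes it had placed under monoterpenoid, limonene, cutin or phenylpropanoid terms for E against F were left out as well.

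All groups came from greenhouse taproots harvested 120 days after sowing, and the taproots of a cultivar had been mixed. F was phloem and E was xylem of one purple cultivar, H was phloem and G was xylem of another, and CT was the undissected slice of the orange cultivar ‘H13.360IND’. The sources disagree on the cultivars. The deposited titles place F and E in ‘Purple Haze’ and H and G in ‘Purple 68’, while the series' design text and the paper place them the other way round, so the groups are called by their letters. The colours differ as well, because the sample labels call E orange and G purple. *CHS1*, which encodes chalcone synthase, the first enzyme of flavonoid synthesis, stood at 7591 and 8899 FPKM in F, 4958 and 7154 FPKM in E, 6252 and 8503 FPKM in H, 78.9 and 74.8 FPKM in G, and 8.40 and 8.72 FPKM in CT. E was therefore close to the phloems in this gene and G was not, which goes against the colour labels of E and G. The paper calls E the purple xylem and G the orange one. It describes an orange xylem at all stages in ‘Purple Haze’ and a purple one in ‘Purple 68’. In *CHS1*, a single gene, the levels of E and G thus go with the cultivars as the paper places them. *DcMYB6*, a gene for a MYB regulator of anthocyanin synthesis, stood at 33.8 and 53.2 FPKM in F and 40.1 and 31.5 FPKM in E, against 0 and 0.0552 FPKM in H, 0.0569 and 1.46 FPKM in G, and 1.42 and 2.11 FPKM in CT. This gene set F and E apart from H and G, the pairs that every source places in 1 cultivar each. No source says which replicates of F and E, or of H and G, came from the same roots.

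The carrot taproot thickens from a ring of cambium that lays down xylem towards the centre and phloem towards the surface. The phloem carries sugars from the leaves, and in carrot the outer tissue also holds oil ducts and is closed by a periderm whose cell walls contain suberin. Purple cultivars store anthocyanins in some or all of these tissues. The 22 genes are known here only by their NCBI gene numbers, written with the prefix LOC, and no description came with any of them, so what their products do is not stated. In bulk tissue, fewer cells of a type and less RNA per cell cannot be told apart.

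The libraries had been scaled by 13909841 to 17118788 fragments, with 15175015 and 16500368 for F, and between 23229 and 25710 loci were detected in each. A count of 3 fragments was taken as the least amount that could be shown, and for these genes it corresponded to 0.0478 to 0.438 FPKM depending on the length of the gene and the library. Such counts and floors carry counting error alone, not the variation between roots. The replicates are described as biological, and the spread between them is that of 2 libraries of mixed roots.

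A gap between F and all 8 other libraries was seen in 63 genes, or 0.175% of the annotated genes. The limit on the means of the other groups removed 40 of them, and the group next to F was H in 24, E in 9, CT in 4 and G in 3 of the 40. The value rule was thus met by 23 genes, or 0.0637%. The one left out was LOC108192262, listed by the study as the chalcone synthase gene *CHS2*, with 15.3 and 31.8 FPKM in F and at most 1.84 FPKM elsewhere. The same rule turned to the other groups found 16 genes for E, 17 for H, 25 for G and 147 for CT, so the number for F lay within the range of the dissected tissues. Set against one group at a time, the F libraries stood 2 times above both libraries of E in 1019 genes (2.82%), of H in 665 (1.84%), of G in 1054 (2.92%) and of CT in 1030 (2.85%).

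**Figure D1:**
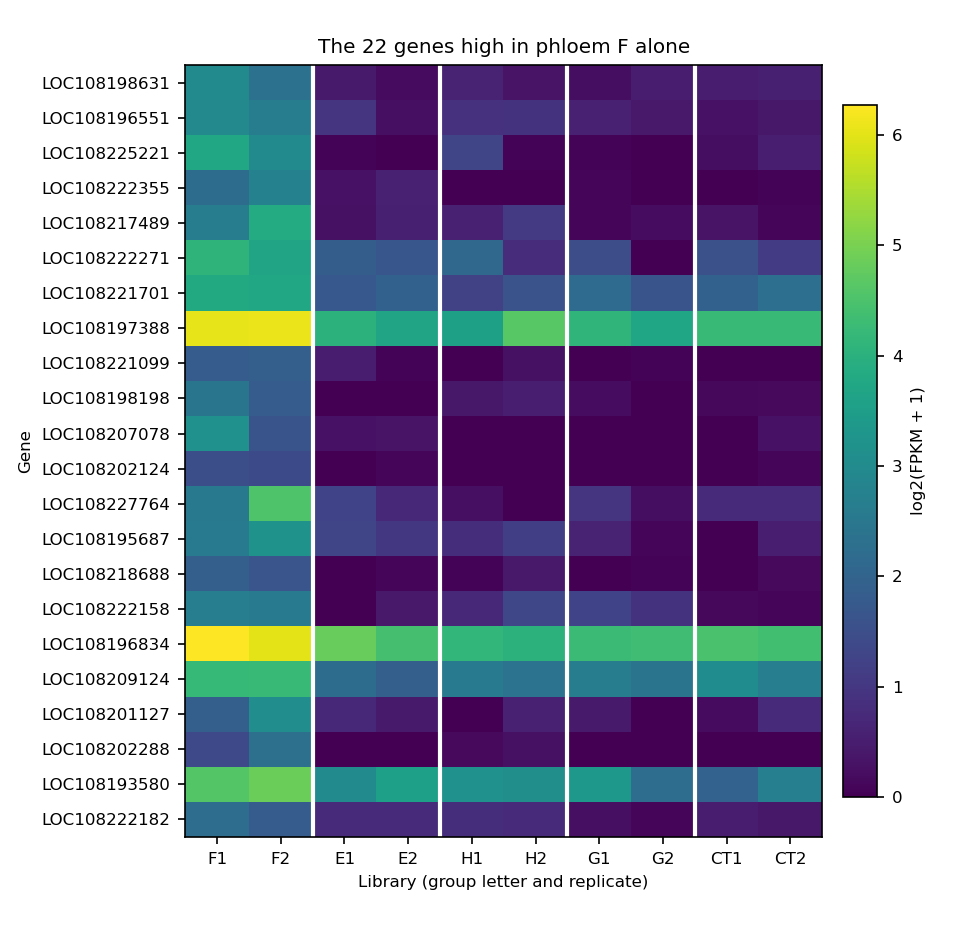
Level of each of the 22 genes (rows, ordered by the gap between F and the other libraries) in each of the 10 libraries (columns, 2 per group), as log2(FPKM + 1) by colour. The pair of F columns is the brightest in every row, and LOC108196834 and LOC108197388 are bright in the other columns as well.

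The levels in F ran from 1.74 to 69.6 FPKM (mean of the 2 libraries), with a median of 5.74 FPKM. Among the 15958 genes with at least 1 FPKM in both F libraries the median was 10.9 FPKM, so most of the 22 were genes of modest level. In 15 the mean of F was below 10 FPKM. The highest of the other 8 libraries was below 2 FPKM in 16 genes, and below 1 FPKM in 11 of these. In the other 6 genes some library outside F reached 2 FPKM or more. The list therefore held a larger set of genes with low levels outside F and a small set that reached 2 FPKM or more in some other library.

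LOC108196834 had the highest level of the small set. It stood at 76.1 and 63.1 FPKM in F, against 26.9 and 20.3 FPKM in E, 16.9 and 15.4 FPKM in H, 18.2 and 19.3 FPKM in G, and 21.1 and 19.8 FPKM in CT. Its mean was 69.6 ± 9.25 FPKM in F and 23.6 ± 4.71 FPKM in E, the highest other group (SD, n = 2 each). The lower F library was 2.29 times the highest other library on the FPKM + 1 scale. This gene rested on the most fragments of the 22, with 8051 in the 2 F libraries and 9087 in the 8 others. It overlaps LOC108194596 on the opposite strand, whose listed level in F was 0. The sources used here do not say whether strand was used in counting. Without it the reads from the stretch that such a pair shares cannot be told apart.

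LOC108197388 gave 65.1 and 66.9 FPKM in F, against 15.2 and 11.7 FPKM in E, 10.8 and 23.96 FPKM in H, 16.0 and 11.8 FPKM in G, and 18.002 and 17.7 FPKM in CT. The F libraries were closer to each other than the H libraries were, and the gap was 2.65. LOC108193580 gave 23.1 and 27.9 FPKM in F, against 6.99 and 10.6 FPKM in E, 8.01 and 7.57 FPKM in H, 9.18 and 3.70 FPKM in G, and 2.94 and 5.56 FPKM in CT. Its gap of 2.09 was set by the second E library and was among the smallest of the list.

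The 3 further genes of this set were lower. LOC108209124 stood at 17.5 and 18.1 FPKM in F, against 3.66 and 2.70 FPKM in E, 5.03 and 4.21 FPKM in H, 5.15 and 4.30 FPKM in G, and 7.25 and 5.40 FPKM in CT. LOC108221701 stood at 13.1 and 12.2 FPKM in F, against 2.29 and 2.86 FPKM in E, 1.30 and 2.04 FPKM in H, 3.60 and 2.10 FPKM in G, and 2.83 and 3.89 FPKM in CT. In both genes CT was the highest of the other groups, and the F replicates lay close to each other. LOC108222271, the only long non-coding RNA among the 22, stood at 15.8 and 11.7 FPKM in F, against 2.57 and 2.19 FPKM in E, 3.32 and 0.743 FPKM in H, 1.79 and 0 FPKM in G, and 1.95 and 1.13 FPKM in CT. Its gap of 2.94 was the largest of these 6 genes. Relative to their level, the replicates of H and of G differed more than those of F did, though not in FPKM.

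**Figure D2:**
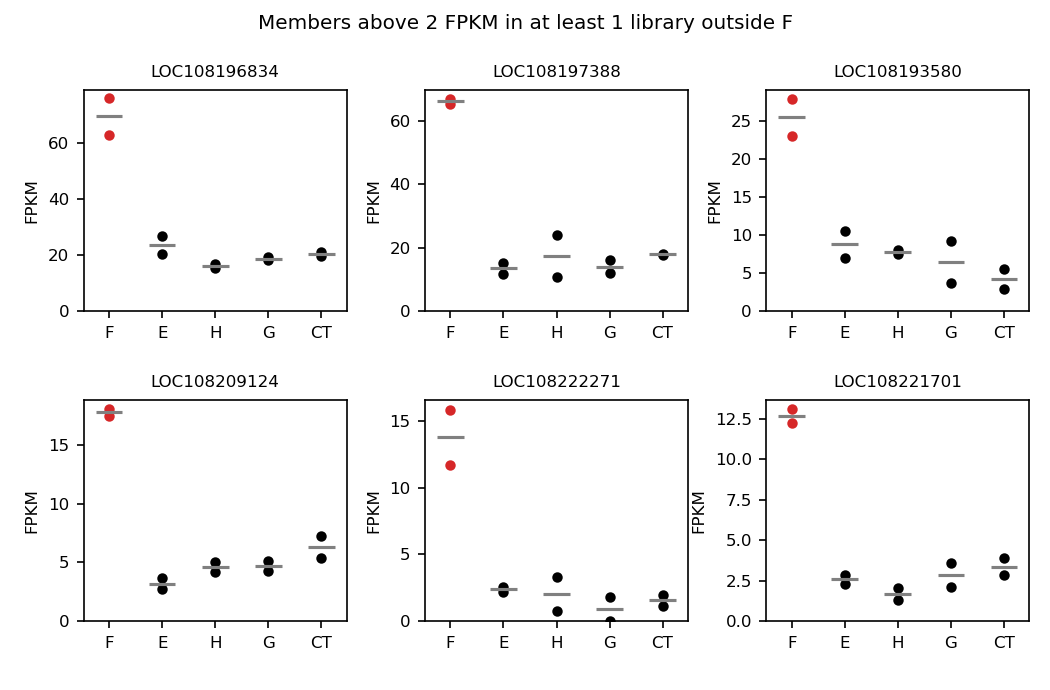
FPKM in each library (points, red for F) and the mean of the 2 libraries (grey lines) of the 6 genes that reached 2 FPKM or more outside F, one panel per gene with groups F, E, H, G and CT from left to right and the vertical axis starting at 0. Both F points lie above every other point in all 6 panels, as the rule required, and no other group is set apart in the same way.

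Among the 16 genes below 2 FPKM outside F, LOC108198631 had the widest gap of the list, 3.35. It stood at 6.80 and 4.16 FPKM in F, against 0.370 and 0.128 FPKM in E, 0.539 and 0.261 FPKM in H, 0.179 and 0.427 FPKM in G, and 0.391 and 0.476 FPKM in CT. These levels rested on 253 fragments in the 2 F libraries and 64 in the 8 others, so low levels outside F were detected and not absent. LOC108196551 gave 6.73 and 5.28 FPKM in F, against 0.910 and 0.203 FPKM in E, 0.853 and 0.895 FPKM in H, 0.497 and 0.338 FPKM in G, and 0.232 and 0.314 FPKM in CT. Its gap was 3.29, and the highest other group was H, the other phloem.

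LOC108225221 gave 12.2 and 7.05 FPKM in F, against 0.0463 and 0 FPKM in E, 1.47 and 0.0490 FPKM in H, 0.0505 and 0 FPKM in G, and 0.165 and 0.447 FPKM in CT. Only the first H library came above 1 FPKM outside F. LOC108222355 gave 3.67 and 5.74 FPKM in F, against 0.241 and 0.4997 FPKM in E, 0 and 0 FPKM in H, 0.0525 and 0 FPKM in G, and 0 and 0.0465 FPKM in CT. With no fragment in either H library, its level in F was at least 61.1-fold higher than in H when 3 fragments over the pair of H libraries were taken as the floor. E was the only other group with more than a trace of this transcript. These 4 genes were also the ones that kept a gap of at least 3 times.

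LOC108217489 stood at 5.19 and 13.4 FPKM in F, against 0.220 and 0.457 FPKM in E, 0.481 and 1.09 FPKM in H, 0.0800 and 0.152 FPKM in G, and 0.261 and 0.0708 FPKM in CT. LOC108227764 stood at 4.81 and 22.3 FPKM in F, against 1.38 and 0.629 FPKM in E, 0.189 and 0 FPKM in H, 0.944 and 0.180 FPKM in G, and 0.720 and 0.669 FPKM in CT. In both genes the second F library was the higher, and in LOC108227764 it was 4.63 times the first, the widest replicate difference of the 22. LOC108227764 overlaps LOC108227765 on the opposite strand, which had a mean of 0.254 FPKM in F.

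LOC108221099 gave 2.54 and 2.70 FPKM in F, against 0.409 and 0.0424 FPKM in E, 0 and 0.216 FPKM in H, 0 and 0.0425 FPKM in G, and 0 and 0 FPKM in CT. LOC108198198 gave 4.44 and 2.55 FPKM in F, against 0 and 0 FPKM in E, 0.327 and 0.436 FPKM in H, 0.163 and 0 FPKM in G, and 0.0889 and 0.108 FPKM in CT. LOC108198198 was thus without a fragment in the xylem E and just detected in the phloem H, while LOC108221099 was without a fragment in CT. By the same floor the level in F was at least 40.2-fold higher than in CT for LOC108221099 and at least 60.5-fold higher than in E for LOC108198198.

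The genes with the fewest fragments were LOC108207078, LOC108202288 and LOC108202124, each with under 100 fragments in F and with no fragment in 5 or more of the 8 other libraries. LOC108207078 stood at 8.04 and 2.09 FPKM in F, against 0.246 and 0.255 FPKM in E, 0 and 0 FPKM in H, 0 and 0 FPKM in G, and 0 and 0.237 FPKM in CT. It had 77 fragments in the F libraries and 6 in the others, and its level in F was at least 24.9-fold higher than in H and at least 25.2-fold higher than in G. LOC108202288 stood at 1.60 and 4.01 FPKM in F, against 0 and 0 FPKM in E, 0.115 and 0.223 FPKM in H, 0 and 0 FPKM in G, and 0 and 0 FPKM in CT. It had 52 fragments in the F libraries and 3 in the others, all in H, and its level in F was at least 17.8-fold higher than in E. LOC108202124 stood at 1.85 and 1.63 FPKM in F, against 0 and 0.0736 FPKM in E, 0 and 0 FPKM in H, 0 and 0 FPKM in G, and 0 and 0.0685 FPKM in CT. Its 47 fragments in the F libraries against 2 in the others put F at least 15.2-fold higher than H and at least 15.4-fold higher than G. None of the 22 genes was without fragments in all 8 other libraries.

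The remaining 5 genes are given to complete the account. LOC108195687 stood at 4.90 and 8.31 FPKM in F, against 1.46 and 1.03 FPKM in E, 0.765 and 1.24 FPKM in H, 0.510 and 0.0607 FPKM in G, and 0 and 0.451 FPKM in CT. At one end, a short stretch of its span of 1446 bp overlaps LOC108195588 on the opposite strand, which had a mean of 9.56 FPKM in F. If strand was not used in counting, the reads of that stretch cannot be told apart either. LOC108218688 stood at 2.71 and 2.16 FPKM in F, against 0 and 0.0876 FPKM in E, 0.0461 and 0.357 FPKM in H, 0 and 0.0439 FPKM in G, and 0 and 0.122 FPKM in CT. LOC108222158 stood at 5.37 and 4.85 FPKM in F, against 0 and 0.353 FPKM in E, 0.650 and 1.53 FPKM in H, 1.39 and 0.883 FPKM in G, and 0.101 and 0.0820 FPKM in CT. On the FPKM + 1 scale it was the least even of the 22 outside F, with group means that spanned 1.96 times. It was also the only one whose highest other group by mean was G. LOC108201127 stood at 2.70 and 7.45 FPKM in F, against 0.633 and 0.359 FPKM in E, 0 and 0.488 FPKM in H, 0.377 and 0 FPKM in G, and 0.137 and 0.668 FPKM in CT. LOC108222182 stood at 3.70 and 2.53 FPKM in F, against 0.690 and 0.716 FPKM in E, 0.754 and 0.670 FPKM in H, 0.188 and 0.0598 FPKM in G, and 0.410 and 0.333 FPKM in CT. Its gap of 2.02 was the smallest of the list.

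Just inside the gap limit of 2 were LOC108201127 (2.22), LOC108202288 (2.13), LOC108193580 (2.09) and LOC108222182 (2.02). Just outside it were LOC108212726 (1.9996), LOC108200267 (1.96), LOC108226739 (1.93) and LOC108196647 (1.90). The limit on evenness excluded LOC108202890 and LOC108198871 narrowly, with means of the other groups that spanned 2.02 and 2.16 times. No break in the values separated the genes inside the limits from those outside.

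**Figure D3:**
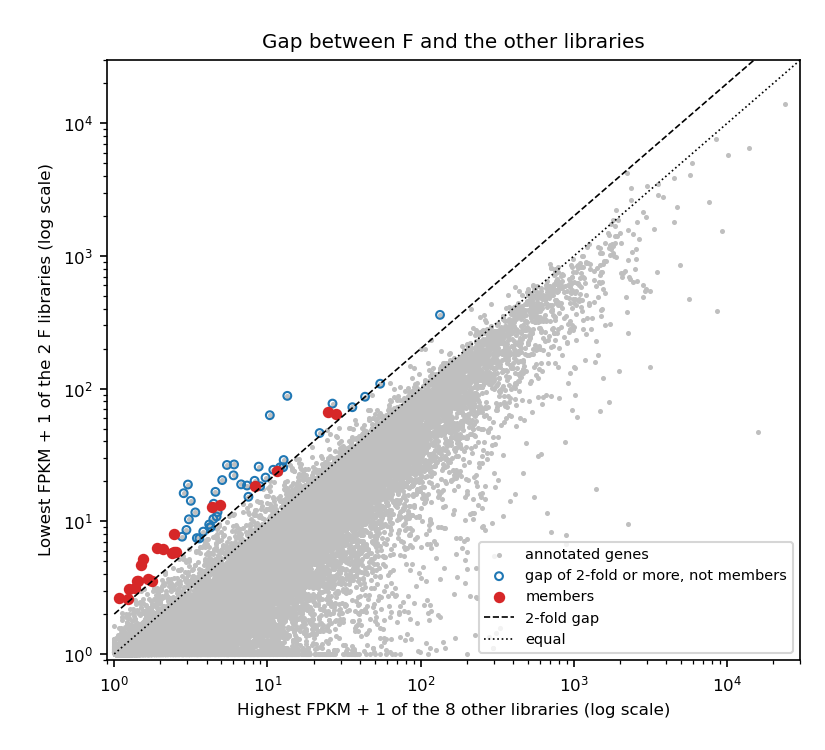
Highest level among the 8 other libraries (horizontal axis) and the lower of the 2 F libraries (vertical axis), both as FPKM + 1 on log scales, for the genes of the list (red), the genes with the gap that are not in the list (open blue circles) and all other annotated genes (grey), with lines of a 2-fold gap (dashed) and of equal levels (dotted). The 22 genes lie above the dashed line, and 16 of them lie where the highest other library is below 2 FPKM.

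The addition of 1 to the FPKM value decided much of the list. It also let a gene meet the evenness limit in any case where every other group mean was below 1 FPKM. In LOC108225221 these means ran from 0.0231 FPKM in E to 0.758 FPKM in H, yet on the FPKM + 1 scale they spanned 1.72 times. In plain FPKM the lower F library was 2.19 to 22.2 times the highest other library, and at least 5 times in 9 genes. With 0.1 added in place of 1, 60 genes met the rule and only 6 of the 22 were among them. With 0.5 added, 32 genes met it, 16 of them from the 22. Of the 22 genes, 9 had at least 5 FPKM in both F libraries.

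The libraries of E and H did most to limit the list, and H or E was mostly the group next to F. The highest single library outside F was of H in 10 genes, of E in 9, of CT in 3 and of G in 0. By the mean, the next group was E in 10 genes, H in 7, CT in 4 and G in 1. Without both libraries of E, 143 genes met the rule, and without both of H 141, against 33 without G and 41 without CT. These runs were chosen after the data had been seen, and each can only add genes to the 22.

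Between the 2 F libraries the genes of the list went both ways, with the first library higher in 12 and the second in 10. A difference of more than 2 times was found in 5 of the 22 (22.7%), against 10.7% of the 15958 genes with at least 1 FPKM in both F libraries. The 5 were LOC108227764 (4.63 times), LOC108207078 (3.84 times), LOC108201127 (2.76 times), LOC108217489 (2.58 times) and LOC108202288 (2.50 times). The first library was the higher in LOC108207078 and the second in the other four. Either F library alone would have admitted more genes, 92 without the first and 90 without the second. The list also grew to 41 genes without the first E library and to 37 without the second H library, and to between 21 and 32 without any one of the other 6 libraries.

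For the genes beside the list and for the study's pathway lists, limma was fitted over all genes that averaged 1 FPKM or more in one of the groups compared. In F against E, 68 of 18293 genes (0.372%) passed the thresholds, an adjusted p below 0.05 and a change of 1 or more on the log2 scale, 58 of them higher in F (0.317%) and 10 lower (0.0547%). In F against H, 263 of 18671 genes (1.41%) were called, 99 higher in F (0.53%) and 164 lower (0.878%). The rule had set a minimum for both changes in the 22 genes, so nothing is read from their calls, although they were part of both fits. As a description, their log2 fold changes of FPKM + 1 ran from 1.26 to 3.33 against E, with a median of 2.06, and from 1.25 to 3.41 against H, with a median of 1.93. Over all genes of the fits the medians were 0.033 against E and 0.11 against H.

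What the rule did not use could be described from the annotation. The listed exon lengths of the 22 ran from 492 to 3675 bp with a median of 1051 bp, against a median of 1628 bp for the genes with at least 1 FPKM in both F libraries. In 9 of the 22 (40.9%) the length was below 1000 bp, against 17.3% of those genes. In 6 (27.3%) the exon length equalled the span on the genome, so that the listing showed no intron, against 9.74%. All 22 were matched to RefSeq entries of the DH1 v3.0 assembly, 21 as protein coding genes, and all 22 had a single listed transcript, against 69.7% of the matched genes with at least 1 FPKM in both F libraries. The median length of the list was thus below that of the genes transcribed in F, although LOC108196834 (3675 bp) and LOC108193580 (2006 bp) were longer than the median of those genes. Short genes give fewer fragments at a given FPKM, and the part of length in the choice of these genes was not tested.

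By position, 6 of the 22 (27.3%) lay on chromosome 5, which holds 11.3% of the annotated genes. These were LOC108222182 (from 2650918 to 2652787), LOC108222355 (from 6728632 to 6731683), LOC108222158 (from 22747743 to 22748454), LOC108221701 (from 31838958 to 31839617), LOC108221099 (from 37401995 to 37403832) and LOC108222271 (from 41507160 to 41507835). Chromosomes 7, 8 and 9 held 3 each, chromosomes 2, 4 and 6 held 2 each, chromosome 1 held 1 and chromosome 3 held 0. The coordinates are those of the deposited files, whose build is not given in the sources used here, and the chromosome numbers were assigned through the matched RefSeq genes. No pair lay within 100 kb of each other. The closest pair, LOC108198198 (from 14116307 to 14117923) and LOC108198631 (from 16892491 to 16894754) on chromosome 8, was 2.77 Mb apart. The other named positions were LOC108197388 on chromosome 8 (from 872423 to 873644) and LOC108196834 on chromosome 7 (from 8974218 to 8982443).

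The genes on either side of each of the 22, 44 in all, were examined as a set picked by position after the list was known. None of the 44 met the gap, which only 0.175% of the annotated genes met, so nothing is read from this. In every library 5 were listed at 0, and of the 36089 annotated genes 29456 were above 0 in at least 1 library. The median ratio of the lower F library to the highest other library was 0.821 on the FPKM + 1 scale, and the ratio was above 1 in 9 of them. Neither value was computed over all genes. The highest ratio was 1.67, in LOC108226757 beside LOC108225221, and LOC108202165 beside LOC108202124 had the same rounded value. LOC108226757 gave 0.990 and 1.11 FPKM in F and at most 0.188 FPKM elsewhere. In limma none of the 21 neighbours tested was called in F against E and none of the 20 tested in F against H. Over all genes tested 0.372% and 1.41% were called, so nothing is read from these counts. In these fits 5 and 3 neighbours passed the same minimum change at an unadjusted p below 0.05. Over all genes, 1936 of 18293 and 2564 of 18671 did so. A neighbour could follow another pattern altogether. LOC108198661, which lies 2375 bp from LOC108197388 and was named after its values were seen, had means of 52.8 FPKM in F, 67.9 in E, 47.8 in H, 0.554 in G and 0.249 in CT. By contrast LOC108207913, also named after its values were seen, had the group order of LOC108195687, from which it lies 1557 bp. Its means were 382 FPKM in F, 218 in E, 130 in H, 91.2 in G and 67.5 in CT.

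**Figure D4:**
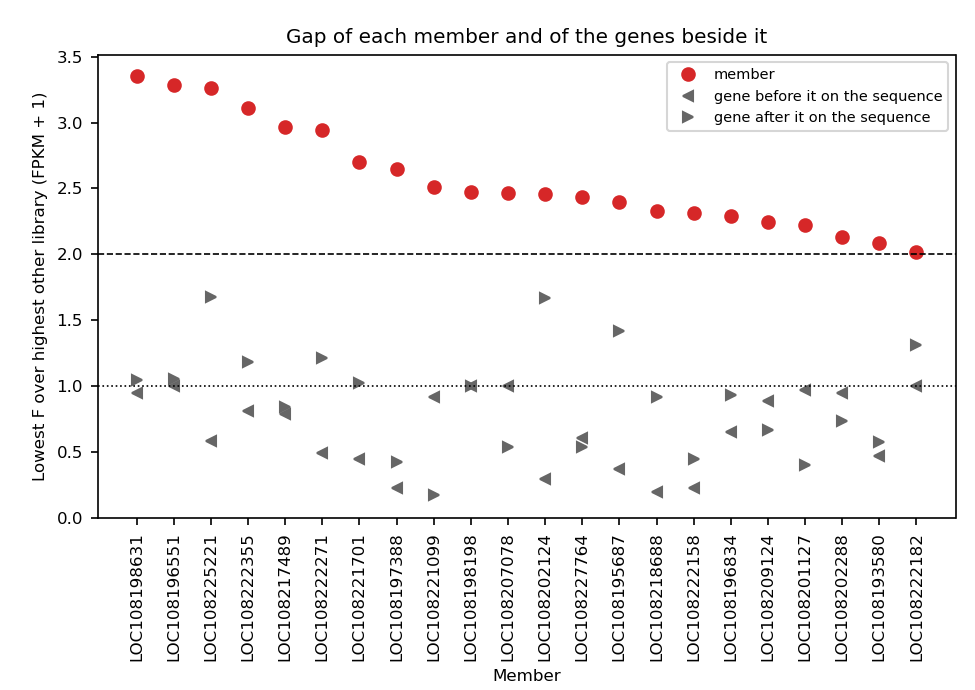
Ratio of the lower F library to the highest of the 8 other libraries, on the FPKM + 1 scale, for each of the 22 genes of the list (red circles, along the horizontal axis) and for the gene before and the gene after it on the chromosome (grey triangles, 44 in all), with the gap limit of 2 as a dashed line and 1 as a dotted line. All red circles lie above the dashed line by the rule, and the neighbours lie at or below 1.67.

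Tissue markers could be matched for few genes. A gene listed by the study as similar to *APL*, a transcription factor gene that sets phloem identity in Arabidopsis, was low in F, with 0.333 and 0.268 FPKM (LOC108225351), against 0 and 0.0396 FPKM in E, 0.208 and 0.283 FPKM in H, 4.87 and 5.83 FPKM in G, and 1.27 and 1.70 FPKM in CT. This gene was below 1 FPKM in both phloems and in E, and a single gene of this level does not settle the tissue label. For the periderm, 3 genes matched to Arabidopsis genes of suberin synthesis were summed. The sums were 7.37 and 5.91 FPKM in F, against 0.181 and 0.125 FPKM in E, 4.81 and 9.87 FPKM in H, 0.822 and 2.41 FPKM in G, and 1.54 and 1.78 FPKM in CT. Both libraries of F and of H lay above all libraries of E, G and CT in these sums. This is the direction of the tissue labels, since the periderm lies on the phloem side of the root. The 3 genes could be matched only through pathway lists that the study had drawn from these libraries, so this direction is not independent evidence. Only the gene matched to *CYP86A1* (LOC108219920) did not separate the tissues by itself, with 2.35 FPKM in the second G library. It stood at 2.14 and 2.39 FPKM in F and 1.81 and 4.92 FPKM in H. In the sums the libraries of F and H overlapped. Whether the share of periderm in the tissue had a part in the levels of the 22 was not tested.

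The study had drawn up gene lists by pathway for E against F, over 61 terms, and the rule had removed the genes of some of these terms from the 22. Those lists had been chosen from these libraries, so their direction is not independent evidence. Of their 93 other genes tested here, 14 were called in F against E, 13 higher in F and 1 lower, with a median log2 fold change of 2.40 beside 0.033 over all genes. In F against H, 1 of the 90 tested was called, higher in F, and the median was 0.735 beside 0.11 over all genes. The called fractions rest on the spread of 2 libraries a group and fell to between 0 and 3 of the 93 when a library of F or E was left out.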

How the data were processed

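The authors aligned paired reads to the NCBI carrot genome (TopHat2 2.0.12, Bowtie2 2.2.3, HTSeq 0.6.1, and DEGs by DESeq 1.18.0, not used here). They deposited FPKM per locus with the length, position and strand of the locus, which were used as well. The planned count test was replaced by limma, since the deposited values were FPKM. Genes and lists were chosen with earlier results of these data known.

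limma 3.58.1 (R 4.3.3, trend) was run on log2(FPKM + 1) in the 4 libraries of each contrast, for genes that averaged 1 FPKM or more in one group, with Benjamini-Hochberg adjustment. Fragments were recovered from FPKM, length and library total. Whole numbers were obtained (within 0.03) with the listed length for 21 genes and a searched length for 1. The test was run on simulated data first. Alternatives were other pseudocounts, filters, gaps, normalization, voom, a shared fit, a replicate block and libraries left out.

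The genes to be named were the 12 with the widest gap, the 4 just inside and the 4 just outside it. Clusters and genes at 0 elsewhere were also to be named, and there were none. Families and transcription factors were planned too, but could not be judged without gene descriptions. The other 6 of the list, and neighbours, were named besides. Lists and markers that needed gene descriptions were not used here. Python 3.11.15 with pandas 2.3.3, numpy 2.4.6 and matplotlib 3.10.9 served for tables and plots.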

Additional observations from a re-analysis of the deposited data

How the results depend on the processing

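The 22 genes became 60 with a pseudocount of 0.1, 4 with a 3-fold gap, 86 with a 1.5-fold gap, 59 with no limit on the other means and 9 with both F libraries at 5 FPKM or more. Of the 22, 6 met the rule with a pseudocount of 0.1 and 12 of the 15 found after quantile normalization were shared. With one library left out the count ran from 21 to 92. Without both libraries of a group (added after seeing the data) it was 143 for E, 141 for H and 41 for CT.

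Called genes numbered 68 in F against E and 263 in F against H. With no filter they were 13 and 7, in one fit of all 10 libraries 879 and 1259, with quantile normalization 154 and 427, and with voom on fragments 0 and 0, with 1931 and 2687 at an unadjusted p below 0.05. With a library left out, they ran from 0 to 17 in F against E and from 0 to 0 in F against H, and the lone library was assumed to vary like the other group. No source pairs the replicate numbers, and the main fits did not pair them. The deviations of same-numbered libraries correlated at -0.30 (F, E) and -0.11 (F, H) over 18331 genes. These values do not settle whether such libraries shared roots or handling. With the replicate block 582 and 991 genes were called, and with the numbers of F crossed (added after seeing the data) 566 and 1241.

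For the listed pathway genes (14 in F against E, 1 in F against H) the counts were 2 and 0 with no filter, 72 and 13 in one fit, 27 and 2 with quantile normalization, 0 and 0 with voom, 47 and 8 with the replicate block, and 49 and 13 with it crossed. With a library left out they ran from 0 to 3 and from 0 to 0. The causes of these shifts were not tested. Pairs of the 22 within 20, 50 or 100 kb numbered 0.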

Other observations

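Outside the annotated genes, 819 loci had been added by the authors, and 1 of them had the gap between F and the other libraries. Novel00172 (chromosome 3, 3622888 to 3623406) stood at 23.3 and 23.98 FPKM in F, against 1.62 and 1.68 FPKM in E, 2.12 and 1.03 FPKM in H, 0.353 and 0.336 FPKM in G, and 2.69 and 2.50 FPKM in CT. Its lower F library was 6.57 times the highest other library on the FPKM + 1 scale, a wider gap than in any of the 22 annotated genes. The means of its other groups spanned 2.67 times, so it did not meet the full rule, and it was named after its values were seen.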
